A study of Mus musculus with 10 samples.

Results

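The 7 genes for cyclin-dependent kinase inhibitors of mouse, Cdkn1a, Cdkn1b, Cdkn1c, Cdkn2a, Cdkn2b, Cdkn2c and Cdkn2d, were examined in lists of accessible chromatin regions of muscle stem cells after prostaglandin E2 (PGE2). A region was counted when its strongest summit lay within 50 kb of the span of such a gene in the GRCm38 (mm10) genome. Of 117284 regions in the aged list 88 met this rule, and of 131656 regions in the young list 98 did. Cdkn2a and Cdkn2b are neighbours on chromosome 4, and a region in reach of both was counted once. This rule uses neither the fold of a region nor a difference between the ages. At the edge of the window, the farthest region inside had a fold of 8.41 in the aged list (Cdkn1c, 49659 bp from the span) and 5.72 in the young list (Cdkn1c, 49675 bp). The nearest region outside had a fold of 5.91 in the aged list (Cdkn2d, 50727 bp) and 6.38 in the young list (Cdkn1a, 51386 bp).

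The lists came from ATAC-seq, an assay that reads out which DNA a transposase can reach. The cells were sorted from C57BL/6 mice as positive for α7-integrin and CD34 and held for 2 h in medium with serum and bFGF, with PGE2 or with 0.1% DMSO as vehicle. The labels give 3 aged PGE2, 2 young PGE2, 3 aged vehicle and 2 young vehicle libraries, with aged mice of 20 to 25 months and young mice of 8 to 20 weeks, and name no final PGE2 concentration. The values used here were a single list for aged PGE2 cells and a single list for young PGE2 cells. How many libraries stood behind each list is not given in the sources used here, and vehicle libraries were not analysed here. An age difference already present in vehicle cannot be told apart from one in the response to PGE2. With 1 list per age, differences between the ages have neither a replicate error nor a test. The fold of a region is the authors' enrichment of its strongest summit over a uniform background, and it describes a region within its own list. Heights were not compared between the lists, since their depth is unknown. Fragments at a summit were worked out from its fold, and whether the caller counted fragments or read ends is not given.

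Muscle stem cells rest outside the cell cycle in undamaged muscle and enter it after injury. Cyclin-dependent kinase inhibitors hold a cell in this resting state by binding the kinases that drive it forward. Proteins of the INK4 family (p16, p15, p18 and p19INK4d) bind Cdk4 and Cdk6, and those of the CIP/KIP family (p21, p27 and p57) bind a wider range of cyclin and kinase complexes. In mouse, Cdkn2a makes the unrelated proteins p16 and p19Arf from separate starts and overlapping reading frames. p19Arf acts through Mdm2 on p53, while p16 is a known mark of senescent cells and has been tied to loss of dormancy in stem cells of very old mouse muscle.

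All 7 genes had an open region within 1 kb of a start at both ages. Over all 21887 protein-coding genes such a region was present for 63.9% in the aged list and 66.3% in the young list. It was present in both lists for 63.5% of genes, for 0.411% in the aged list alone, for 2.8% in the young list alone, and for 33.3% in neither of them. Of the 7 genes 6 had starts in the RefSeq table, and for Cdkn1c both ends of the span were used. The median fold at the start of the 7 genes was 40.0 in the aged list and 78.3 in the young list. The median over all genes with such a region was 29.2 in the aged list and 44.5 in the young list. The order of the starts within each list was similar. In the aged list it ran, from high to low, Cdkn2d, Cdkn1b, Cdkn2c, Cdkn2b, Cdkn1a, Cdkn1c, p19Arf and p16. In the young list p19Arf stood above Cdkn1a and Cdkn1c, and the other starts kept this order. With no spread over libraries, it is not known which neighbours in this order differ.

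**Figure D1:**
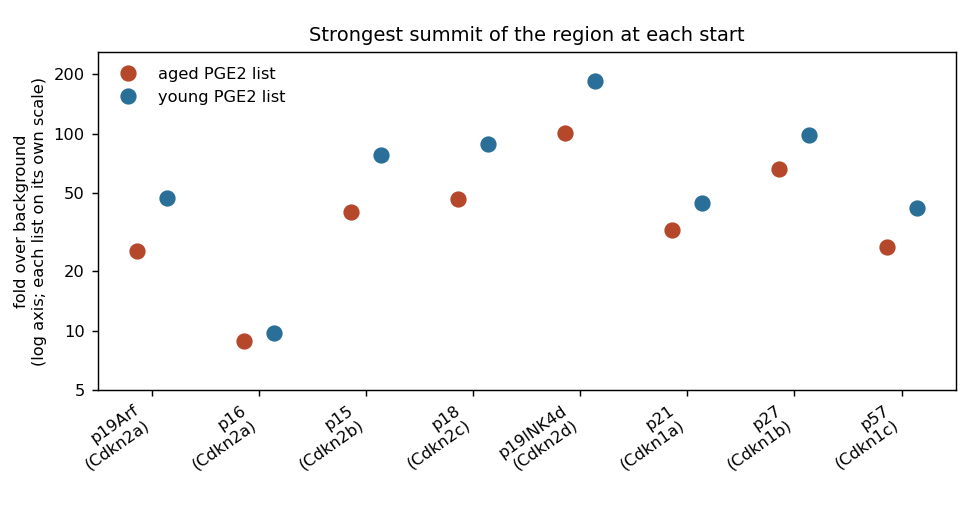
Fold over background of the strongest summit in the region at each start (log axis), with the aged PGE2 list left of the young PGE2 list for each gene; each point is a single value with no replicate. The p16 start is the lowest in both lists, at 8.89 in the aged and 9.73 in the young list, and Cdkn2d is the highest, at 101 in the aged and 184 in the young list; the scales of the lists are not comparable.

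At Cdkn2a the p16 and p19Arf starts were open separately, and the p16 start was the weaker in both lists. The starts lie 12427 bp apart on the reverse strand of chromosome 4, p19Arf at 89294619 and p16 at 89282192, inside a gene span of 89274473 to 89294619. The region at the p19Arf start ran from 89294220 to 89295929 in the aged list and from 89294143 to 89295902 in the young list. A start of the transcript Gm12610 lies within 1 kb of it. Its fold was 25.3 in the aged list, or 526 fragments at the summit, and 47.5 in the young list, or 1077 fragments. This placed it at percentile 89.2 of all aged regions and percentile 93.4 of all young regions.

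The region at the p16 start was narrower, with 568 bp in the aged list (89281997 to 89282564) and 859 bp in the young list (89281965 to 89282823). Its fold was 8.89 in the aged list, or 184 fragments, and 9.73 in the young list, or 220 fragments. For a ranking, each gene with a start region entered with the highest fold at any of its starts, or span ends where no start was given. Against these values the p16 fold ranked at percentile 17.7 in the aged list and percentile 14.8 in the young list. As p16 is the weaker start of Cdkn2a, this sets it against the best starts of other genes. Open chromatin at p16 was thus present in both lists and low beside the best starts of genes. By the same ranking p19Arf stood at percentile 43.9 in the aged list and percentile 53.1 in the young list. The p19Arf fold was 2.85 times the p16 fold within the aged list and 4.88 times within the young list, ratios that have no replicate error. The strongest summits of the aged and young lists lay 24 bp apart at p16 and 15 bp apart at p19Arf.

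The sequences at these starts, from RefSeq on GRCm38.p6, cover 250 bases before to 50 bases after each start. They are shown because the starts of this locus differ in base composition and motifs as well as in openness. Capitals mark GC boxes (GGGCGG, bound by Sp1), CCAAT boxes (CCAAT) and the cAMP response element (TGACGTCA, bound by CREB), each searched on both strands. The p19Arf start is chr4:89294570-89294869, the p16 start chr4:89282143-89282442 and the p15 start of Cdkn2b chr4:89310983-89311282, all on the reverse strand and written 5′ to 3′.
p19Arf: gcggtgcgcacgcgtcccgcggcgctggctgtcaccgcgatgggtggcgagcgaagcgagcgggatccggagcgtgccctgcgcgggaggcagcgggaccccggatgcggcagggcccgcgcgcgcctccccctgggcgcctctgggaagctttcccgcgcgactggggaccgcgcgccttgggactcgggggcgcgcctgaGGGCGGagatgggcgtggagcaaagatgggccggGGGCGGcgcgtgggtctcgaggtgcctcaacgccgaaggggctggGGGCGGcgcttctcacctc
p16: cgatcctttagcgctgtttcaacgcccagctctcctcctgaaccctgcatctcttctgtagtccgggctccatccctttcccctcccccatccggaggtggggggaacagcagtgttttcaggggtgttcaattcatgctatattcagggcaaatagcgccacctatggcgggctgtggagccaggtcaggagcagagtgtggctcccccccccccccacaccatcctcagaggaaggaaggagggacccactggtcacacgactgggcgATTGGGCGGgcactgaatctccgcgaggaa
p15: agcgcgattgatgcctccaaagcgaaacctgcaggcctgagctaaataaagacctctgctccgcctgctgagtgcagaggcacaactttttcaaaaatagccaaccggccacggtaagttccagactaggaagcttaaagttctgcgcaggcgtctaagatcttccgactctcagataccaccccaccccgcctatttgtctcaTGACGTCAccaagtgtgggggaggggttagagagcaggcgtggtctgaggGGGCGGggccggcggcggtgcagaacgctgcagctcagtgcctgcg
The p19Arf sequence held 77.0% G and C, 45 CpG pairs (percentile 98.4 of 32851 promoters) and 3 GC boxes. The p16 sequence held 60.3% G and C, 12 CpG pairs (percentile 62.1), 1 GC box and 1 CCAAT box that overlaps it. The p15 sequence held 57.7% G and C, 18 CpG pairs (percentile 71.9) and 1 GC box, while its region had the highest fold of these starts. The order by G and C was thus not the order by fold. A GC box was found in 35.7% of all promoters of this length and a CCAAT box in 37.4%.

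The p15 sequence was the only one of the 9 starts searched that held a full cAMP response element. PGE2 raises cAMP through its receptors EP2 and EP4, and this element is the classic binding site of the cAMP-responsive factor CREB. It lay 46 to 39 bases before the start of Cdkn2b and was found in 1.79% of all promoters. The match is a description of the letters and not evidence of binding. The region over this start had a fold of 40.0 in the aged list (89310203 to 89311484, 832 fragments) and 78.3 in the young list (89310133 to 89311786, 1778 fragments). Its strongest summit lay 35 bp after the start in the aged list and 59 bp after it in the young list. Within each list p15 was the most open of the 3 starts of the locus, at 4.5 times the p16 fold in the aged list and 8.05 times in the young list.

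Away from these starts the regions of the Cdkn2a and Cdkn2b locus had lower folds. Within 50 kb of Cdkn2b the aged list had 9 regions and the young list 11, and these included all 6 aged and 9 young regions within 50 kb of Cdkn2a. The median over all coding genes was 8 regions in the aged list and 9 in the young list. Apart from the 3 start regions, folds ran from 2.5 to 3.8 in the aged list and from 2.02 to 7.09 in the young list. The median fold of all regions was 4.32 in the aged list and 4.89 in the young list. Young regions of 6.56-fold and 7.09-fold lay above it. Of the 9 aged regions 0 were without an overlap, and of the 11 young regions 4 were, or 36.4%. Over the whole lists 10.7% of aged and 28.2% of young regions were without one. The young regions without an aged counterpart had folds of 2.33 to 3.57. One of them, 89281602 to 89281758 with a fold of 2.47, lay 510 bp downstream of the p16 start, and another, 89303672 to 89303857 with a fold of 3.57, lay between p15 and p19Arf. A weak aged region, 89311624 to 89311772 with a fold of 2.5, lay just before the p15 start and was overlapped by the wide young region at that start.

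**Figure D2:**
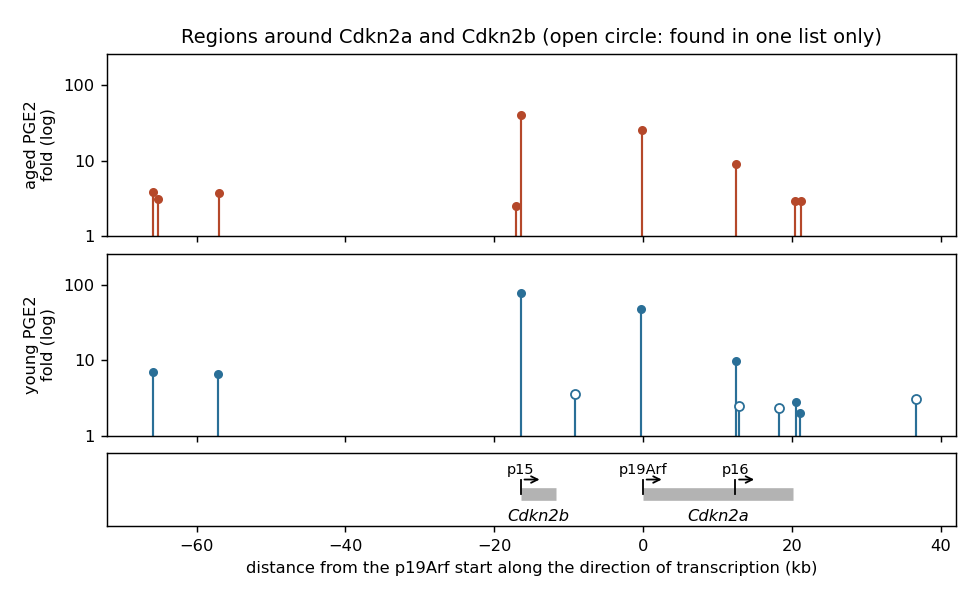
Regions within 50 kb of Cdkn2b, aged PGE2 list above young PGE2 list, at the distance of the strongest summit from the p19Arf start (kb, in the direction of transcription) with the fold on a log axis; open circles have no overlap in the other list, grey bars are gene spans and arrows are starts. The p15, p19Arf and p16 starts carry the 3 highest stems in both panels, with folds of 40.0, 25.3 and 8.89 in the aged list and 78.3, 47.5 and 9.73 in the young list.

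Cdkn2c, which encodes p18, and Cdkn2d, which encodes p19INK4d, had the most open starts of the INK4 family. Cdkn2c lies on chromosome 4 at 109660876 to 109666756 on the reverse strand. A single wide region covered both of its RefSeq starts, 109664862 to 109667546 in the aged list and 109664759 to 109667840 in the young list. Its fold was 46.7 in the aged list and 88.7 in the young list, at a summit 72 bp before the upstream start in the aged list and 71 bp before it in the young list. The summit nearest the downstream start had a fold of 25.3 in the aged list and 34.9 in the young list. These starts differ in composition, with 73.3% G and C and 4 GC boxes at the upstream start and 44.0% G and C and 0 GC boxes at the downstream start.

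A stronger region 9541 bp before the upstream Cdkn2c start (9544 bp in the young list) had a fold of 49.4 in the aged list and 95.04 in the young list. It lies at the start of Faf1, a neighbouring gene. A region 9610 bp after the upstream start in the aged list and 9615 bp after it in the young list had a fold of 17.5 in the aged list and 39.4 in the young list, near the start of the transcript 9630013D21Rik. The strongest region with no start of the RefSeq table within 1 kb lay 25705 bp after the upstream start in the aged list. It lay 25694 bp after that start in the young list. Its fold was 16.1 in the aged list and 17.8 in the young list. Cdkn2c had 12 aged and 14 young regions, with 1 aged region (2.64-fold) and 2 young regions (2.95-fold and 3.96-fold) without an overlap. That is 8.33% of its aged and 14.3% of its young regions, beside 10.7% and 28.2% in the whole lists.

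Cdkn2d lies on chromosome 9 at 21288459 to 21291421 on the reverse strand and had the highest start fold of the family. Its start region, 21290568 to 21292097 in the aged list and 21290507 to 21292102 in the young list, had a fold of 101 (2108 fragments) in the aged list and 184 (4188 fragments) in the young list. It held 1 summit in each list and ranked above 99.6% of aged and 99.8% of young regions. The start sequence held 5 GC boxes, the most of the 9 starts. The locus is dense in genes, and the other regions of at least 10-fold nearby lay mostly at starts of neighbours. The region at the far end of Cdkn2d lay at the start of Kri1, with folds of 62.2 in the aged list and 104 in the young list. Regions at Atg4d, an autophagy protease gene, had folds of 44.1 in the aged list and 58.5 in the young list, and those at Keap1, a sensor of oxidative stress, 27.6 in the aged list and 43.7 in the young list. The 17 aged and 16 young regions included 1 without an overlap in each list, at 1.97-fold in the aged list and 2.20-fold in the young list. That is 5.88% of its aged and 6.25% of its young regions, beside 10.7% and 28.2% in the whole lists.

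Cdkn1a, which encodes the p53 target p21, had an open downstream start, while its upstream start lay outside any region at both ages. The gene spans 29090979 to 29100722 on the forward strand of chromosome 17. From the upstream RefSeq start at 29090979 the nearest region was 2413 bp away in the aged list and 2248 bp away in the young list. The downstream start at 29093769 was covered by a region from 29093392 to 29095973 in the aged list and from 29093227 to 29097083 in the young list. Its fold was 32.3 in the aged list (672 fragments) and 44.7 in the young list (1014 fragments).

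The highest point of that region was not at the start. The strongest summit lay 1752 bp after the downstream start in the aged list and 1755 bp after it in the young list. The summit at the start itself lay 46 bp before it in the aged list and 39 bp before it in the young list, with a fold of 20.3 in the aged list and 35.5 in the young list. The region held 6 summits in the aged list and 12 in the young list. Each of the 6 aged summits had a young summit within 3 to 23 bp, so the summit positions of the lists were close to each other. Of the young summits, 5 lay beyond the last aged one, with folds of 1.94 to 9.16.

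**Figure D3:**
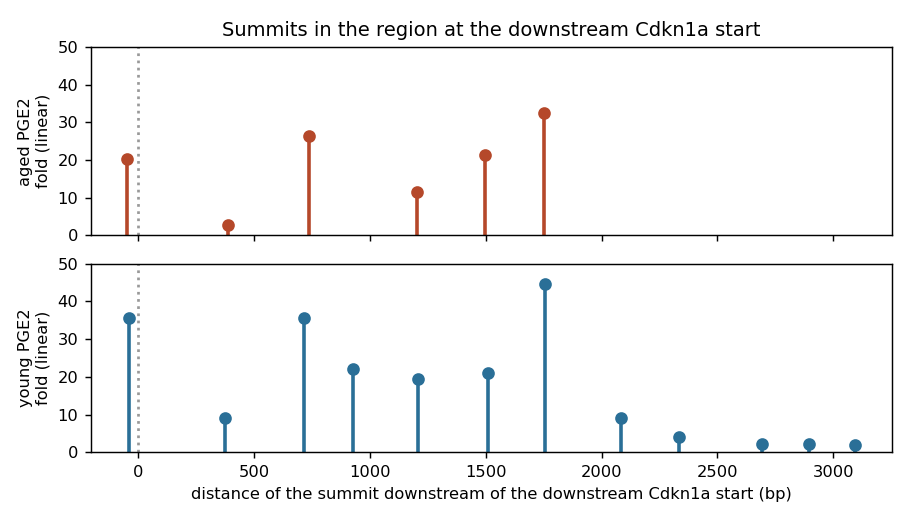
Summits within the region at the downstream Cdkn1a start, aged PGE2 list above young PGE2 list, by distance after that start (bp) and fold over background (linear axis from 0). In both panels the highest stem stands 1752 bp after the start in the aged list and 1755 bp after it in the young list, and the 5 stems at the far right are in the young list alone.

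The sequences at both Cdkn1a starts are shown because the start without a region carries a p53 element and the start with a region GC boxes. They cover chr17:29090729-29091028 and chr17:29093519-29093818 on the forward strand of GRCm38.p6, from RefSeq. Capitals mark the p53 response element in the upstream sequence and GC boxes (GGGCGG) in the downstream sequence.
Cdkn1a upstream start: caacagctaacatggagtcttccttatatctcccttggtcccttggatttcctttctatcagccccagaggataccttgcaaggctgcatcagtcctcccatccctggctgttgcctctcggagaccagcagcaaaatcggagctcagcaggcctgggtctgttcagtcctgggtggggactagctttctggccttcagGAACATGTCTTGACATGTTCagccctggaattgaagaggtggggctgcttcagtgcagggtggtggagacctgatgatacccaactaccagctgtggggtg
Cdkn1a downstream start: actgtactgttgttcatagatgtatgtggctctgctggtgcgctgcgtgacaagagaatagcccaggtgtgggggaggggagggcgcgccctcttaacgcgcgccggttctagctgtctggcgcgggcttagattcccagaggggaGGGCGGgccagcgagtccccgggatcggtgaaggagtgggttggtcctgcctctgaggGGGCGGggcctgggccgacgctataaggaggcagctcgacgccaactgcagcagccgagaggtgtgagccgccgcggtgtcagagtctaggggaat
The p53 response element is the binding motif of p53 and was searched as 20 bases with up to 1 mismatch, a search added after the values were seen. It matched at chr17:29090928-29090947 with 1 mismatch, 2822 bp before the downstream start, and such a match was found in 0.0883% of all promoters. No region of either list covered it, and the nearest began 2445 bp after it in the aged list and 2280 bp after it in the young list. A site outside a region is one where the caller's threshold was not passed, which does not show that it was closed. The upstream sequence held 2 CpG pairs (percentile 23.3 of promoters) and 0 GC boxes, and the downstream sequence 23 CpG pairs (percentile 80.0) and 2 GC boxes.

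Cdkn1a had the most regions of the 7 genes, 26 in the aged list and 25 in the young list, and of its regions of at least 10-fold (4 aged, 7 young) the one at its own start was alone in lying within 1 kb of a RefSeq start. The median over all coding genes was 8 in the aged list and 9 in the young list. Upstream regions with no RefSeq start within 1 kb lay 31112 bp before the downstream start in the aged list and 31093 bp before it in the young list, with folds of 27.7 in the aged list and 30.4 in the young list. A further one lay 14698 bp before it in the aged list and 14703 bp before it in the young list, with folds of 25.9 in the aged list and 34.1 in the young list. Farther upstream than the first of these lay 14 aged and 13 young regions, with folds of up to 8.6 in the aged list and 14.2 in the young list. Inside the neighbouring gene Rab44, a region had a fold of 11 in the aged list and 18.1 in the young list.

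Some Cdkn1a regions were found at a single age, 7.69% of its aged and 24% of its young ones (10.7% and 28.2% in the whole lists). The aged list had 2, with folds of 2.07 (42 fragments) and 2.31 (47 fragments), the weaker of them 6642 bp after the downstream start near the far end of the gene. The young list had 6, with folds of 2.29 to 4.01. When both ends of the span were used in place of the starts, this weak aged region made Cdkn1a appear open in the aged list only.

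Cdkn1b, which encodes p27, a protein high in resting muscle stem cells, had the most open start of the CIP/KIP family. The gene lies on the forward strand of chromosome 6 at 134920401 to 134925525. Its start region, 134919193 to 134921925 in the aged list and 134919415 to 134922399 in the young list, had a fold of 66.5 (1383 fragments) in the aged list and 98.6 (2238 fragments) in the young list. The strongest summit lay 41 bp before the start in the aged list and 36 bp before it in the young list. The start sequence held 3 CCAAT boxes, more than any of the other starts searched, and 1 GC box. It also held the shorter part of the cAMP element, TGACG, 21 to 25 bases after the start on the reverse strand, found in 20.8% of all promoters.

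Further strong regions near Cdkn1b were found at both ages. One at 134896888 to 134898983 in the aged list and 134896878 to 134899030 in the young list lay 21967 bp before the start in both lists, at the starts of Gpr19 and 2810454H06Rik. Its fold was 58.8 in the aged list and 84.2 in the young list. Another lay 8318 bp after the start in the aged list and 8313 bp after it in the young list, by the start of Lockd, a long noncoding RNA gene downstream of Cdkn1b. Its fold was 36.4 in the aged list and 63.7 in the young list. One region with no start of the RefSeq table within 1 kb lay 14387 bp before the Cdkn1b start in the aged list. In the young list it lay 14391 bp before that start. Its fold was 8.94 in the aged list and 19.3 in the young list.

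Of the 12 aged regions of Cdkn1b 0 lacked an overlap, and of its 19 young regions 8 did, or 42.1%. Over the whole lists 10.7% of aged and 28.2% of young regions lacked one. By share Cdkn2a was higher in the young list, with 4 of 9 regions or 44.4%, and counts this small do not order the genes. These 8 had folds of 2.07 to 4.58, with 46 to 103 fragments at the summit. The strongest lay inside the gene 2600 bp after the start (134922872 to 134923133, 4.58-fold), followed by a region 16343 bp before it (134903933 to 134904484, 4.36-fold).

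Cdkn1c, which encodes p57, is an imprinted gene expressed from the maternal copy, and the highest fold of its locus lay at the gene itself. It lies on chromosome 7 at 143458339 to 143461059. A region covered its higher-numbered end and most of the gene, from 143459116 to 143461657 in the aged list and from 143458944 to 143461841 in the young list. Its fold was 26.5 (550 fragments) in the aged list and 42.2 (957 fragments) in the young list, with 7 summits in each. The strongest summit lay 6 bp inside the higher-numbered end in the aged list and 18 bp inside it in the young list.

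Beside the gene, a cluster of regions lay 2531 to 9088 bp beyond that end in the aged list and 3034 to 9087 bp beyond it in the young list. That at 143466312 to 143466920 had the highest fold of the cluster in the aged list, 8.07, and its young counterpart, 143466180 to 143466899, had a fold of 12.5. The highest of the cluster in the young list, 143463842 to 143464468, had a fold of 12.99, and its aged counterpart, 143463913 to 143464241, had a fold of 7.54. A region at the start of Phlda2, another imprinted gene, had a fold of 9.23 in the aged list and 9.07 in the young list. A region inside Kcnq1 at the edge of the window had a fold of 8.41 in the aged list and 5.72 in the young list. The alleles were not separated in the lists. Of 12 aged regions 1 lacked an overlap (2.07-fold), and of 13 young regions 2 did (3.04-fold and 3.30-fold). These shares were 8.33% aged and 15.4% young, beside 10.7% and 28.2% in the whole lists.

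**Figure D4:**
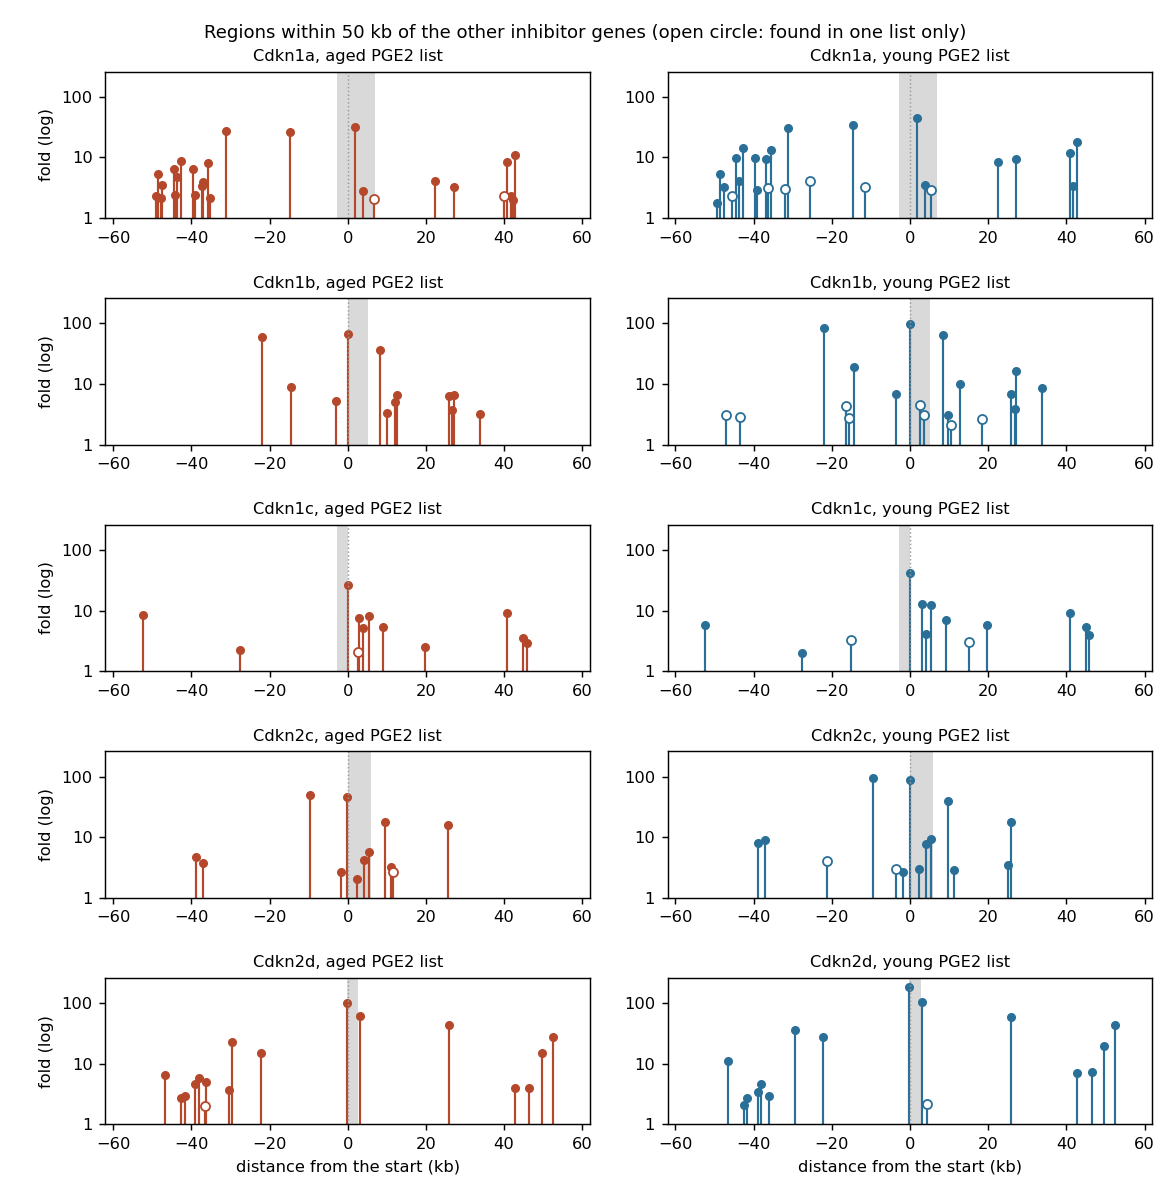
Regions within 50 kb of Cdkn1a, Cdkn1b, Cdkn1c, Cdkn2c and Cdkn2d, aged PGE2 list on the left and young PGE2 list on the right, by distance of the strongest summit from the start (kb, in the direction of transcription; for Cdkn1c from the higher-numbered end in genome order; for Cdkn1a from the downstream start, for Cdkn2c from the upstream start) and fold on a log axis. Grey bands are gene spans and open circles have no overlap in the other list; every open circle lies below 5-fold, with 4.58 in the Cdkn1b young panel as the highest.

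Over the 7 genes, most regions were found at both ages. Of the 88 aged regions 5 had no overlap with a young region (5.68%, 95% exact binomial interval 1.87 to 12.8), where 10.7% of all aged regions had none. Of the 98 young regions 23 had no overlap with an aged region (23.5%, 15.5 to 33.1), where 28.2% of all young regions had none. Both intervals held the share of the whole list, so the share near these genes was not distinguishable from it at this number of regions. These shares depend on what counts as shared. With a reciprocal overlap of 50% they were 29.5% of aged and 36.7% of young regions near these genes (33.9% and 41.2% in the whole aged and young lists). With summits within 100 bp they were 27.3% of aged and 34.7% of young regions (28.2% and 36.03% in the whole aged and young lists). Among the 58642 strongest regions of each list they were 14.9% of aged and 22% of young regions (11.1% and 15.4% in the whole aged and young lists). The intervals cover counting error over neighbouring regions only and do not stand for mice. The regions found at a single age had folds of 1.97 to 2.64 in the aged list and 2.07 to 4.58 in the young list. Of these, 0 of 5 aged and 0 of 23 young ones lay above the median strength of their list, where 1.94% of all regions found in the aged list alone and 5.63% of all those found in the young list alone did. Low strength was thus general to regions found at a single age.

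**Figure D5:**
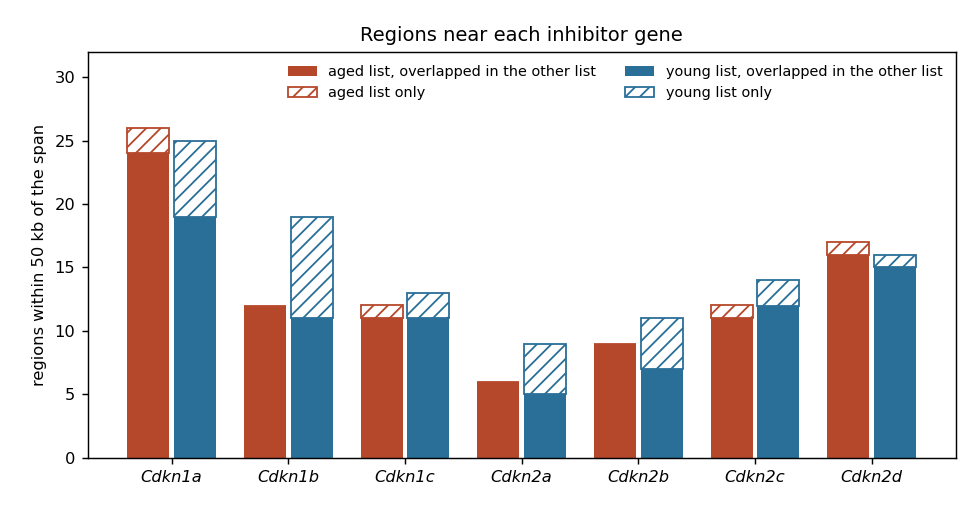
Number of regions within 50 kb of each gene span, aged PGE2 list left of young PGE2 list; solid bars are regions overlapped in the other list and hatched bars those found in a single list. Cdkn1a has the most regions (26 aged, 25 young) and Cdkn1b the most in the young list alone (8, against 0 in the aged list alone). In the whole lists 10.7% of aged and 28.2% of young regions were found in a single list. Regions in reach of both Cdkn2a and Cdkn2b are drawn for each.

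Strong regions were about as frequent near these genes as in the whole lists. At 10-fold or more over background the aged list had 21 regions near these genes and the young list 30, which is 23.9% of the aged and 30.6% of the young regions there, where 25.4% of all aged and 29.0% of all young regions were that strong. All 21 aged and all 30 young ones had an overlap in the other list, as did 29763 of all 29766 aged regions of this strength (100% after rounding) and 99.9% of all young ones (38161 of 38189), so this is no trait of these genes. Of the strong regions near these genes, 15 aged and 17 young lay within 1 kb of a RefSeq start of some gene. The other 6 aged and 13 young regions had no start of the RefSeq table within 1 kb. They include the region over the higher-numbered end of Cdkn1c, a gene that has no start in that table. Over the whole lists 32.3% of aged and 28.0% of young regions of this strength lay at a start, and windows drawn around genes hold starts by construction.

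Some wide young regions overlapped several regions of the aged list. The regions near the 7 genes covered 61361 bp in the aged list and 80681 bp in the young list. Young regions were also the wider ones over the whole lists, with a median of 435 bp beside 380 bp for aged regions. As the depth of the lists is unknown, a difference in depth and one in age cannot be told apart here. Overlap with at least 2 regions of the other list was found for 1 of the 88 aged regions and for 10 of the 98 young regions, or 10.2%. In the whole lists this held for 1.49% of aged and 7.76% of young regions. In all, 83 shared aged regions stood against 75 shared young ones. At the 8 start regions the aged list had 37 summits, of which 30 had a young summit within 50 bp, with a median distance of 14 bp.

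The other genes of the pathway were also open at their starts. The 45 genes of this list were 8 cyclins, 5 cyclin-dependent kinases, 3 genes of the Rb family, 6 E2F factors, 3 genes for the turnover of p27 and p21, and 20 regulators of the inhibitor genes. All 45 had a start region in both lists, 0 in the aged list only and 0 in the young list only, beside the 63.5% of all coding genes that were open in both. The 3 strongest in the aged list were E2f3, a driver of S phase entry, Klf6, a zinc finger activator of p21, and Sp1, which binds GC boxes. Their folds were 170 in the aged list and 245 in the young list for E2f3, 167 in the aged list and 242 in the young list for Klf6, and 155 in the aged list and 235 in the young list for Sp1. The kinase genes Cdk4 and Cdk6, the targets of the INK4 proteins, had folds of 32.2 and 18.8 in the aged list and 45.2 and 35.5 in the young list. For Bmi1, a Polycomb gene that represses Cdkn2a, the fold was 25.6 in the aged list and 64.3 in the young list. Skp2, which marks p27 for degradation, had a fold of 88.0 in the aged list and 133 in the young list.

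The labelled cell type was matched by its markers. All 10 muscle stem cell markers, among them Pax7, Itga7 and Cd34, had a start region in both lists. The immune genes Ptprc, Cd3e and Adgre1 and the endothelial gene Pecam1 had none in either list. Markers of other cell types with a start region in both lists were 3 of 4 for fibro-adipogenic cells, 2 of 4 for endothelial cells, 3 of 4 for smooth muscle and pericytes, 1 of 4 for immune cells and 2 of 4 for glia. Of the rest, Ly6a had a start region in the aged list alone (2.5-fold), and Cdh5 (1.98-fold), Rgs5 (3.21-fold) and Sox10 (2.95-fold) in the young list alone. The part of other cells in the results was not tested.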

How the data were processed

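The submitters' processing notes name Bowtie2 and the mm10 (GRCm38) build. The deposited files were 2 MACS narrowPeak lists, 215838 aged and 265507 young rows; no source used here gives the options of the caller or the pooling of libraries. The deposited fold ratio and −log10 q (smallest 2.16 aged, 2.08 young) of each summit are the authors' own values. The deposited score, which follows the −log10 q, and the −log10 p were not used. Folds were whole multiples of a step (tolerance 0.01). This gave a uniform background of 19.8 in the aged and 21.7 in the young list, and the count at a summit. These counts are written as fragments, though the unit that the caller counted is not given.

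Touching or overlapping rows were merged, keeping the summit with the highest −log10 q. Regions were shared with 1 bp of overlap. Starts came from a RefSeq promoter table of GRCm38.p6 (17492 of 21887 coding genes), otherwise both span ends were used, within 1 kb. Intervals are exact Clopper-Pearson at 95%. They cover counting error over regions only, as each age has a single list. Overlap counting was tested on simulated data. The members, lists and naming rule were chosen with earlier results of these data known. The rule named all 7 genes, their start regions, the 3 strongest regions and 2 strongest single-age regions per gene and list, the 3 strongest pathway genes, and 1 most similar gene each; other pathway genes and markers named were chosen after their values were seen. A planned comparison of proteins was not run. Python 3.11.15, numpy 2.4.6, pandas 2.3.3 and scipy 1.17.1 were used.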

Additional observations from a re-analysis of the deposited data

How the results depend on the processing

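All 7 genes had a start region in both lists with start windows of 500 bp and 2.5 kb, at a −log10 q of at least 5, with rows up to 100 bp apart merged and among the strongest 58642 regions of each list. With both span ends in place of starts, a setting added after seeing the data, the young count was 6, without Cdkn1a. Of the 45 pathway genes 44 were open in both lists among the strongest regions (without Ets1) and 44 with span ends (without Skp2). The number of regions near the genes was set by the window and the list. It was 47 aged and 50 young when each list was limited to its 58642 strongest regions, 32 aged and 37 young with a window of 10 kb, and 37 aged and 45 young where an inhibitor gene was the nearest coding gene. A window of 100 kb gave 126 aged and 150 young regions. Regions found at a single age numbered 3 aged and 10 young at 10 kb (9.38% and 27.03%). By nearest gene they numbered 3 aged and 13 young (8.11% and 28.9%), and at 100 kb 7 aged and 42 young (5.56% and 28%). Over the whole lists, 10.7% of aged and 28.2% of young regions were without an overlap under the same rule. Among the strongest regions there were 7 aged and 11 young ones. With a reciprocal overlap of 50% they numbered 26 aged and 36 young, and with summits within 100 bp 24 aged and 34 young. When a counterpart within 1 kb counted as shared they numbered 0 aged and 15 young (0% and 15.3%). By that rule 5.74% of all aged and 19.02% of all young regions were found at a single age. These settings change the number of regions compared or what counts as shared by construction. Libraries could not be left out in turn, as the lists hold no value per library. No paired analysis was possible because each age has a single list and no test was made. Depth per library is unknown, so for weak regions near the threshold a difference in depth and one in age cannot be told apart.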

Other observations

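For each inhibitor gene the coding gene with the most similar pattern was sought over 6 percentiles, namely regions within 50 kb, regions found at a single age and the highest start fold, each in both lists. Genes within 500 kb of an inhibitor gene were left out. These were Ldlrad3 for Cdkn1a, Hnrnpa1 for Cdkn1b, Gstm7 for Cdkn1c, Mettl5 for Cdkn2a, Sirt1 for Cdkn2b, Synm for Cdkn2c and Tm2d2 for Cdkn2d. The distance was smallest for Hnrnpa1, at 1.14 percentile points, and 4.13 to 6.81 points for the others. Hnrnpa1, which encodes an RNA-binding protein, had 12 aged and 19 young regions, as Cdkn1b did, with 0 aged and 8 young ones found at a single age. Its start fold was 66.5 in the aged list and 93.8 in the young list. Likeness over 2 lists rests on few values.

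The start of Ccna2, the cyclin of S phase, had the highest fold of the 8 cyclin genes, at 121 in the aged list and 187 in the young list. That of Ccnd2 was the lowest in both, at 9.13 in the aged list and 9.86 in the young list. Ccnd1, the cyclin that pairs with Cdk4, had 10.6 in the aged list and 37.2 in the young list. Ccnd1 ranked at percentile 20.6 of gene starts in the aged list and percentile 43.0 in the young list. Ets1, an activator of p16, had the weakest start of the 45 pathway genes, at 6.34 in the aged list and 4.40 in the young list. These values have no replicate error, and ranks in lists of unequal length do not show a change.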
